A study of Mus musculus with 6 samples.

Results

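Aminoacyl-tRNA synthetases are the enzymes that join each amino acid to its transfer RNA, the step that fixes which amino acid a codon stands for. Most mammalian cells carry separate nuclear genes for the enzymes of the cytosol and for those imported into mitochondria, while Gars (glycine) and Kars (lysine) each serve both compartments from a single gene. The set described here comprises 36 listed genes, 20 cytosolic and 16 mitochondrial (symbols ending in 2), matched by exact symbol to the 23494 rows of the expression table. Rows were found for 35 of them, 19 cytosolic and 16 mitochondrial. Mars1 (cytosolic methionine enzyme) had no row of that name. A row named Mars, an older symbol of Mars1 in RefSeq, is given beside the members and is not counted among them. All 35 passed the filter of a mean of at least 1 TPM (transcripts per 1000000 transcripts of the library, corrected for transcript length), as did 12865 genes in all.

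The samples came from wild type female C57BL/6 mice that all carried B16F10, a mouse melanoma line grown under the skin of the flank. Once tumours averaged about 60 mm3, 8 mice per group were assigned at random to phosphate-buffered saline (vehicle) or to recombinant MANF (rMANF, a protein of the endoplasmic reticulum that is also secreted) at 2 µg/kg into the peritoneum every day. The labels name 3 biological replicates per group, all wild type and labelled heart. Age, length of treatment and the choice of 3 mice out of 8 are not stated in the sources used here. The labels' column names of the vehicle samples begin with IgG.

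The tissue label was checked against heart muscle markers. Of 13 cardiomyocyte genes 10 had rows, and their summed level was 8.23 to 68.1 TPM with vehicle and 8.58 to 12.1 TPM with rMANF. Pln (phospholamban) stayed at or under 0.0432 TPM in every library, and Myl2 had no estimate (set to 0 here) in vehicle replicate 3 and in all rMANF libraries. Myh6, Ryr2 and Nkx2-5 were not analysed here. Nppb (B-type natriuretic peptide), looked at after the list, stood at 46.6 to 57.4 TPM in every library. The listed heart muscle markers were thus low, Nppb was not, and the libraries are named here by their labels. Markers of several other cell types moved with the groups. The 12 macrophage markers summed to 3273 to 3736 TPM with vehicle and 1906 to 2586 TPM with rMANF, with 12 of 12 lower, and the 12 skeletal muscle markers to 27.8 to 1235 and 7.13 to 19.7 TPM, with 12 of 12 lower. The 8 T and NK cell markers summed to 40.2 to 104 and 17.5 to 36.2 TPM (8 of 8 lower), the 6 fibroblast markers to 223 to 365 and 170 to 242 TPM (5 of 6 lower), and the neutrophil markers to 20.9 to 204 and 14.8 to 30.98 TPM (4 of 4 tested lower). The 7 endothelial markers summed to 83.0 to 111 and 101 to 125 TPM, with 6 of 7 higher. The 6 markers of dividing cells summed to 937 to 1052 and 916 to 964 TPM, with 3 higher and 3 lower. B cell markers summed to 3.55 to 6.07 and 3.50 to 5.72 TPM, and red cell markers to 196 to 682 and 209 to 302 TPM. Of 6 melanocyte genes 2 had rows, Pmel (at most 0.341 TPM) and Mitf (7.36 to 12.2 TPM). None of these markers was at 0 in every library. In such bulk samples fewer cells of a type and less RNA per cell cannot be told apart.

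The mitochondrial valine enzyme gene, the cytosolic valine enzyme gene and several other synthetase genes lay higher in the libraries labelled rMANF, without passing the threshold. No member passed limma's test over all genes (Benjamini-Hochberg adjusted p under 0.05), and none of the 12865 tested genes did (background 0%). An unadjusted p under 0.05 (limma) was found for 2642 genes (20.5%). Of the 35 members 7 had one, a share near that of all tested genes. At an adjusted p under 0.10 limma called 2 members, Vars2 and Vars, both higher, against 2.73% of all tested genes (1.94% higher and 0.793% lower). The groups were separate, with every rMANF value the higher, for 11 of 35 members (31.4%), against 18.9% of all tested genes. For 1 member, Rars2, they were separate with every rMANF value the lower, against 9.02% of all tested genes. Counted by sign alone, 27 of 35 members lay higher as deposited, against 57.3% of all tested genes on that scale. Under median-of-ratios scaling 21 lay higher, where the median difference over all tested genes was −0.0067 (0.04 as deposited). With that scaling the groups did not overlap for 8 members higher and 3 lower, against 15.6% and 14.3% of all tested genes.

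**Figure D1:**
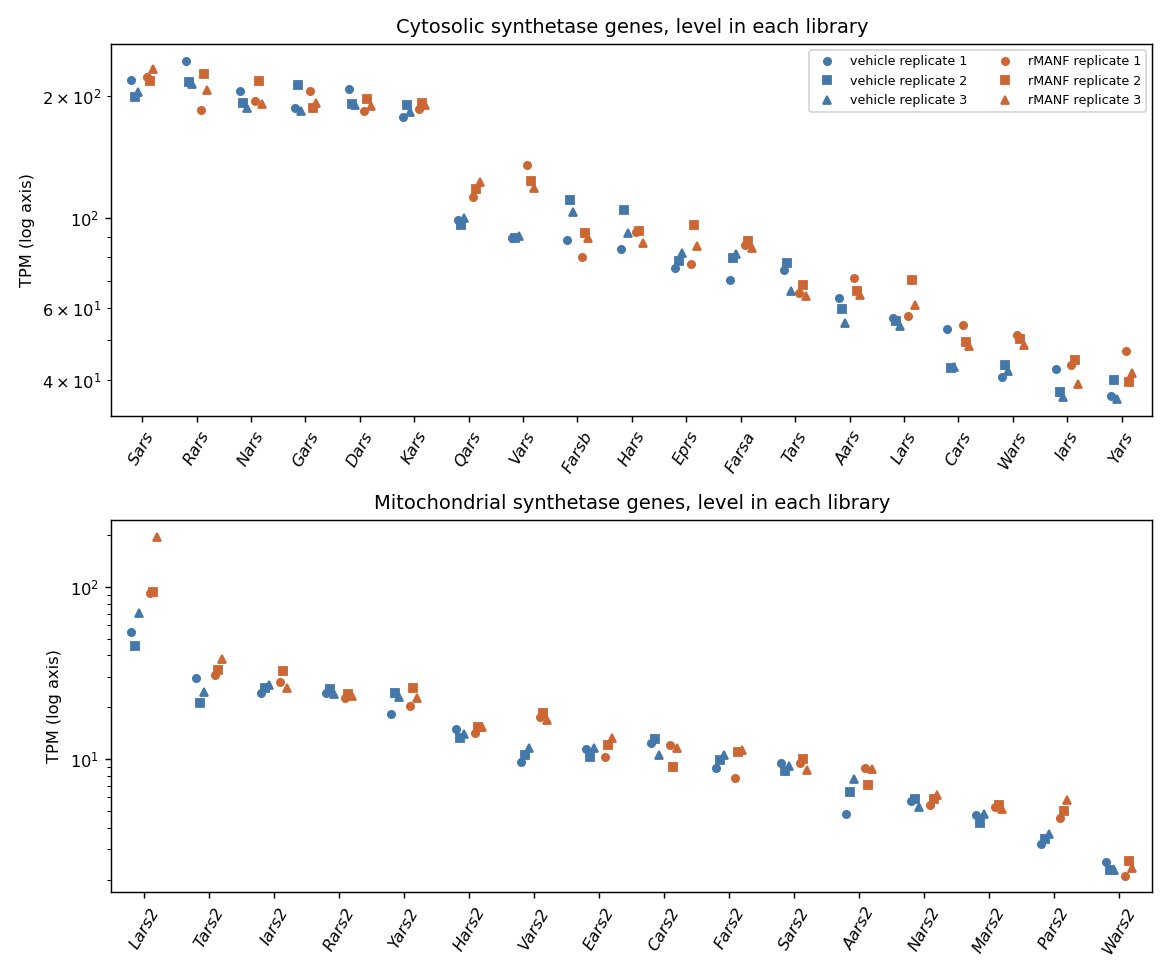
Level of each synthetase gene in TPM (log axis) in each of the 6 libraries, blue for vehicle and orange for rMANF, with 1 symbol shape per replicate and genes ordered by mean level. Cytosolic genes lie between 35.8 and 244 TPM, and mitochondrial genes other than Lars2 between 2.11 and 38.2 TPM.

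The cytosolic enzymes were the more abundant set. Their 19 genes reached 2113, 2117 and 2042 TPM together under vehicle (replicates 1 to 3, in order, as in all values per library) against 2150, 2236 and 2156 TPM under rMANF. The 16 mitochondrial genes reached 239, 230 and 260 TPM against 291, 311 and 410 TPM. Both sums were higher in every rMANF library than in every vehicle library. Lars2 alone made up 19.6 to 27.1% of the mitochondrial sum with vehicle and 30.2 to 47.5% with rMANF. Without Lars2 the mitochondrial sum was 184 to 190 TPM with vehicle and 200 to 217 TPM with rMANF, still with no overlap.

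Among the cytosolic genes 6 formed an upper tier. Sars (serine), Rars (arginine), Nars (asparagine), Gars, Dars (aspartate) and Kars each lay between 177 and 244 TPM in all 6 libraries, and neighbours in that order overlapped in their values. All other cytosolic genes stayed at or under 135 TPM, down to Yars (tyrosine) and Iars (isoleucine) at 35.8 to 47.0 TPM. At the lower end of the mitochondrial genes were Mars2 (methionine), Pars2 (proline) and Wars2 (tryptophan). Wars2 was the least abundant at 2.11 to 2.58 TPM, below Pars2 (3.23 to 5.82 TPM) in every library. The spread between vehicle libraries was small for most members, with a median coefficient of variation of 6.75%, and lowest for Vars at 0.622%.

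Vars2, the mitochondrial enzyme that charges transfer RNA with valine, lies on chromosome 17, 35655634 to 35667592 (GRCm38, minus strand). It measured 9.61, 10.5 and 11.6 TPM under vehicle against 17.7, 18.5 and 16.9 TPM under rMANF. Every rMANF library stood well above every vehicle library. The ratio of means was 1.67, and the log2 difference on the log2(TPM + 1) scale was 0.69 ± 0.10 (SE), ranked 18 of 12865 genes by p (limma, Benjamini-Hochberg adjusted p = 0.0893). Since Vars2 was among the genes already known to differ in these data, that rank is no independent evidence. Its promoter from RefSeq (GRCm38.p6, chr17:35667543-35667842, minus strand, 250 bases before to 50 after the annotated start) is shown because Vars2 had the smallest p of all members. It holds no exact match, which capitals would mark, to any of the motifs searched in these promoters, which are named with their results.
Vars2: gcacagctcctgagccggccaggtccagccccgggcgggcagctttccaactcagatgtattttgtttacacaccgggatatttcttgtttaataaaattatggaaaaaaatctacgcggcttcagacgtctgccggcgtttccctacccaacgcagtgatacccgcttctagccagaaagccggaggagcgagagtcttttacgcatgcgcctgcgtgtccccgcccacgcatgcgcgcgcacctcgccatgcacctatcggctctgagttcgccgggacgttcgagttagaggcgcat

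Vars, the cytosolic valine enzyme, lies on the same chromosome (17, 35000987 to 35016322, plus strand). It measured 89.1, 89.2 and 90.1 TPM under vehicle against 135, 123 and 118 TPM under rMANF. The 3 vehicle values were nearly equal and all rMANF values were higher. The ratio of means was 1.40 and the log2 difference 0.48 ± 0.08 (limma, adjusted p = 0.0893). Of the 9 other tested genes within 50000 bases of Vars, 1 lay higher without overlap and 0 lower (median difference −0.02). All 3 within that distance of Vars2 had a positive difference (median 0.41), 2 of them without overlap. Those were Gtf2h4 (0.20) and the collagen receptor gene Ddr1 (0.52, limma adjusted p = 0.0893). Vars2 also overlaps the antisense gene Gm20483, and reads of the overlapped part cannot be assigned to a strand in libraries made without strand marking. Gm20483 itself stayed at 0.811 to 2.26 TPM.

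**Figure D2:**
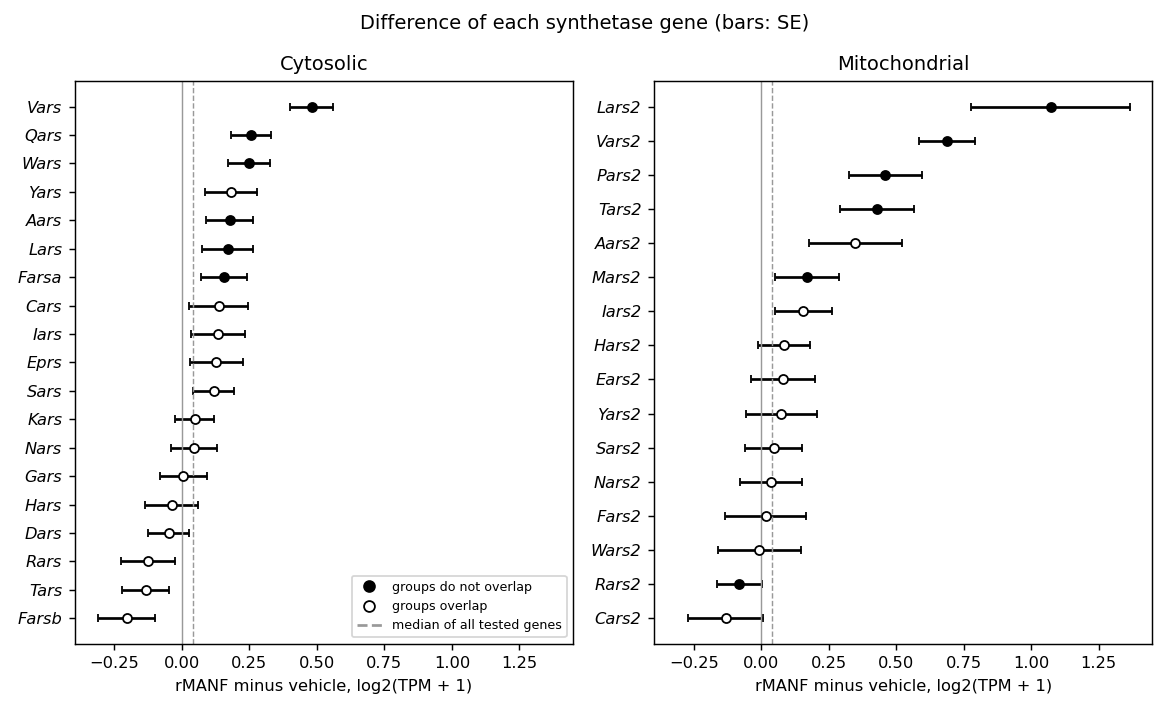
Difference between groups (rMANF minus vehicle, log2(TPM + 1), point and SE bar) for each synthetase gene, filled where the groups' 3 values do not overlap. The dashed line is the median of all tested genes at 0.04, and Lars2, Vars2 and Vars show the largest differences.

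The remaining cytosolic genes differed by less. Qars, the glutamine enzyme (chromosome 9, 108507706 to 108515941), measured 99.2, 96.4 and 99.9 TPM under vehicle against 113, 118 and 122 TPM under rMANF, without overlap. Its log2 difference was 0.25 ± 0.07 (limma, adjusted p = 0.132). Wars, the tryptophan enzyme, known to be induced by interferon gamma, measured 40.8, 43.5 and 42.1 TPM under vehicle against 51.5, 50.4 and 48.7 TPM under rMANF. Wars thus lay higher in every rMANF library (0.25 ± 0.08; limma, adjusted p = 0.147). The 10 interferon gamma response genes listed beside it had 9 tested members, of which 8 lay lower and 4 without overlap (9.02% of all tested genes), with a median of −0.54 against 0.04 over all tested genes. T and NK cell markers moved with this list, with 8 of 8 lower and 5 without overlap, and their part in it was not tested. Among them the chemokine gene Cxcl10, listed for its response to interferon gamma, measured 200, 191 and 168 TPM under vehicle against 121, 119 and 146 TPM under rMANF (limma, adjusted p = 0.0893).

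Aars (alanine), Farsa and Lars (leucine) also had separate groups with rMANF higher, at smaller distances. Aars measured 63.6, 59.9 and 55.3 TPM under vehicle against 71.3, 66.1 and 64.8 TPM under rMANF (0.18 ± 0.09; limma, adjusted p = 0.301). The highest vehicle value of Lars was 56.6 TPM and its lowest rMANF value 57.3 TPM, so the gap was narrow (0.17 ± 0.10; limma, adjusted p = 0.356). These 3 no longer separated under median-of-ratios scaling, whereas Qars, Wars and Vars did. Yars measured 36.5, 40.1 and 35.8 TPM under vehicle against 47.0, 39.5 and 41.5 TPM under rMANF, with overlap (0.18 ± 0.10; limma, adjusted p = 0.337). Aars shares 20.3% of its 31-base words with Exosc6, which overlaps it on the same strand, and Iars 17% with Gm4849, so their levels are uncertain where the authors' quantification could split reads. Hars and Hars2 (histidine) overlap head to head by 198 bases on opposite strands. Other members overlap genes of the opposite strand too, and Kars shares 1.02% of its words with Gm8428 and the other members under 1% with any gene.

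The cytosolic genes that lay lower all overlapped between groups as deposited, while Tars, Rars and Dars separated with rMANF lower under median-of-ratios scaling, and Tars also under quantile normalization. Farsb measured 88.1, 111 and 104 TPM under vehicle against 80.1, 91.9 and 89.4 TPM under rMANF (−0.21 ± 0.11; limma, adjusted p = 0.323). Tars (threonine) measured 74.4, 77.5 and 66.3 TPM under vehicle against 65.3, 68.6 and 64.1 TPM under rMANF, and Rars 244, 216 and 213 against 184, 227 and 207 TPM. Dars (207, 191 and 190 against 183, 196 and 189 TPM) and Hars (84.1, 105 and 92.0 against 92.3, 93.1 and 86.9 TPM) completed this direction, at −0.05 ± 0.08 and −0.04 ± 0.10. Gars (186, 213 and 183 against 206, 186 and 191 TPM) and Kars (177, 190 and 182 against 186, 191 and 190 TPM), the genes that serve both compartments, differed by 0.00 ± 0.09 and 0.05 ± 0.07. Sars, which had the highest mean over all 6 libraries but stood below Rars in each vehicle library, measured 219, 198 and 204 TPM under vehicle against 222, 218 and 233 TPM under rMANF, with overlap. The other cytosolic members, Cars (cysteine), Iars, Eprs (glutamate and proline) and Nars, differed by 0.04 to 0.14 and overlapped.

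Farsa and Farsb encode the alpha and beta subunits of the cytosolic phenylalanine enzyme, a tetramer with equal numbers of each. Their transcripts differed in opposite directions. Farsa measured 70.5, 79.6 and 81.7 TPM under vehicle against 85.7, 87.9 and 84.4 TPM under rMANF (0.16 ± 0.09; limma, adjusted p = 0.346). The ratio of Farsa to Farsb was 0.800, 0.718 and 0.788 under vehicle against 1.07, 0.956 and 0.943 under rMANF. It was higher in every rMANF library and near 1 there. This ratio was picked after its values were seen and is given without a test. Library scaling cancels in it, whereas a trend with transcript GC content, described below, need not. Farsa has 54.3% GC and Farsb 46.0%. With each library's GC trend removed they differed between groups by 0.10 ± 0.07 and −0.13 ± 0.12.

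The row Mars, the cytosolic methionine enzyme under its older symbol (chromosome 10, 127296221 to 127311786), measured 50.2, 45.4 and 45.9 TPM under vehicle against 61.1, 59.5 and 62.6 TPM under rMANF. Its groups did not overlap, and its difference of 0.37 ± 0.08 was next in size after Vars among the cytosolic genes (limma, adjusted p = 0.0967). The Mars gene overlaps Ddit3, the stress transcription factor gene also called CHOP, by 68 bases at their ends. Ddit3 measured 72.5, 46.8 and 51.9 TPM under vehicle against 69.9, 61.3 and 65.3 TPM under rMANF, with overlap.

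Lars2, the mitochondrial leucine enzyme (chromosome 9, 123366927 to 123462666), had the largest difference of all members. It measured 54.9, 45.1 and 70.7 TPM under vehicle against 91.6, 93.8 and 195 TPM under rMANF. The groups did not overlap, and rMANF replicate 3 stood at more than double the other rMANF values. The log2 difference was 1.07 ± 0.29 (limma, adjusted p = 0.123) and 0.72 without rMANF replicate 3. Lars2 was also the most abundant mitochondrial member in every library. Its protein coding transcripts share under 1% of their 31-base words with those of any other gene annotated in GENCODE M21. A short shared stretch would stay under that limit, and sequences outside that annotation were not compared.

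Like Lars2, 2 ribosomal RNA related rows lay higher in every rMANF library than in every vehicle library. Gm42418, which RefSeq lists under Rn18s-rs5, a pseudogene related to ribosomal RNA, measured 1440, 740 and 1281 TPM under vehicle against 2282, 1798 and 3430 TPM under rMANF. Gm26917, an annotated noncoding RNA next to it on chromosome 17, measured 301, 364 and 380 TPM under vehicle against 601, 411 and 684 TPM under rMANF. Both peaked in rMANF replicate 3, as Lars2 did, and vehicle replicate 2 was the lowest for Lars2 and for Gm42418. Other ranks within the groups differed in part. The highest vehicle library was replicate 3 for Lars2 and Gm26917 but replicate 1 for Gm42418. For Gm26917 vehicle replicate 1 was the lowest. Both rows were higher in rMANF replicate 1 than in replicate 2, whereas Lars2 was slightly lower. The mitochondrial ribosomal RNA mt-Rnr2 lay lower in every rMANF library, at 404, 269 and 232 TPM under vehicle against 227, 230 and 222 TPM under rMANF. In a fit added after seeing these values, with the Gm42418 level as a covariate, the Lars2 difference was 0.18 ± 0.33 and that of Vars2 0.78 ± 0.19 (limma, adjusted p = 0.930 and 0.855). In the same fit the Tars2 difference was 0.05 ± 0.19, against 0.43 without the covariate. Gm42418 was itself higher in every rMANF library, so this fit cannot separate its level from the group for any gene. What Gm42418 contributes to the Lars2 level was not tested.

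**Figure D3:**
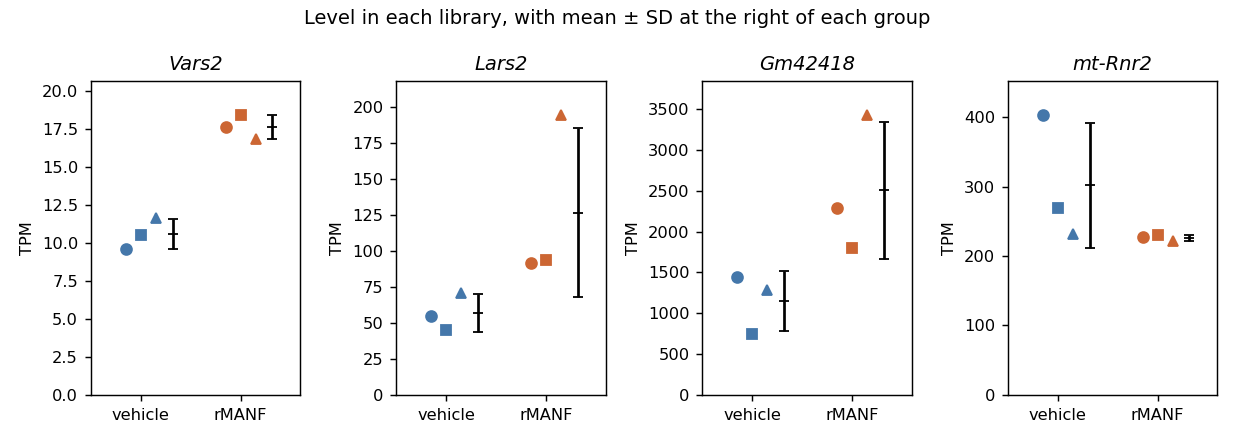
TPM in each library for Vars2, Lars2, the ribosomal RNA related row Gm42418 and the mitochondrial ribosomal RNA mt-Rnr2, 1 symbol per replicate, with mean and SD to the right of each group. Lars2 and Gm42418 are both highest in rMANF replicate 3 (195 and 3430 TPM), while Vars2 is not.

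Pars2, Tars2 and Mars2 also had separate groups with rMANF higher. Pars2, the mitochondrial proline enzyme, measured 3.23, 3.44 and 3.68 TPM under vehicle against 4.58, 5.01 and 5.82 TPM under rMANF (0.46 ± 0.14; limma, adjusted p = 0.136). Tars2, the threonine enzyme, measured 29.6, 21.3 and 24.5 TPM under vehicle against 30.8, 33.0 and 38.2 TPM under rMANF (0.43 ± 0.14; limma, adjusted p = 0.152). The margin of Tars2 was narrow, since vehicle replicate 1 came close to rMANF replicate 1. Mars2 measured 4.76, 4.23 and 4.78 TPM under vehicle against 5.26, 5.42 and 5.17 TPM under rMANF (0.17 ± 0.12). These genes and Qars, Wars, Vars, Vars2 and Lars2 kept non-overlapping groups under median-of-ratios scaling, quantile normalization and a rescaling that leaves out haemoglobin and mitochondrially encoded genes. Tars2 alone of them overlapped once each library's GC trend was removed.

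The other mitochondrial members overlapped between groups, with the exception of Rars2. Aars2, the alanine enzyme, measured 4.78, 6.47 and 7.70 TPM under vehicle against 8.85, 7.06 and 8.75 TPM under rMANF (0.35 ± 0.17; limma, adjusted p = 0.299). Without vehicle replicate 1 the Aars2 difference was 0.19. Vehicle replicate 3 exceeded rMANF replicate 2 for this gene, and its vehicle libraries had the largest coefficient of variation of any member (23.2%). Rars2, the arginine enzyme, measured 24.3, 25.7 and 24.0 TPM under vehicle against 22.6, 23.9 and 23.2 TPM under rMANF, a difference of −0.08 ± 0.08 whose sign turned (0.0014) after removal of each library's GC trend. Cars2 measured 12.4, 13.1 and 10.5 TPM under vehicle against 12.1, 9.01 and 11.7 TPM under rMANF (−0.13 ± 0.14). Wars2 measured 2.52, 2.28 and 2.26 TPM under vehicle against 2.11, 2.58 and 2.33 TPM under rMANF (−0.01 ± 0.15). Iars2, Hars2, Ears2 (glutamate), Yars2, Sars2 (serine), Nars2 (asparagine) and Fars2 (phenylalanine) differed by 0.02 to 0.16.

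Summarised by compartment, 14 of 19 cytosolic genes lay higher and 6 did so without overlap (31.6%, against 18.9% of all tested genes), with a median log2 difference of 0.13. Under median-of-ratios scaling 3 of the 19 did so, against 15.6% of all tested genes. Of the 16 mitochondrial genes 13 lay higher and 5 without overlap (31.2%, as deposited), with a median of 0.08. Over all tested genes the median was 0.04. The synthetases fall into structural classes by the fold of their catalytic core. Of 18 measured class I genes, which include both valine enzymes, 7 were non-overlapping and higher (38.9%, median 0.15). Of 17 class II genes 4 were (23.5%, median 0.05), against 18.9% of all tested genes. No test was made between the compartments or the classes.

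Partner genes for the same amino acid were compared as ratios of cytosolic to mitochondrial TPM, in which library scaling cancels. A trend with transcript GC content need not cancel where the partners differ in GC. Across 14 pairs the ratio ran from 0.313 for Lars over Lars2 in rMANF replicate 3 to 37.2 for Nars over Nars2 in rMANF replicate 2. The ratio was lower in every rMANF library than in every vehicle library for 4 pairs, higher for 1, and overlapped for 9. Vars over Vars2 was 9.27, 8.46 and 7.75 with vehicle and 7.64, 6.66 and 7.01 with rMANF. Tars over Tars2 was 2.52, 3.64 and 2.70 with vehicle and 2.12, 2.08 and 1.68 with rMANF. Both pairs thus shifted towards the mitochondrial partner, the valine pair with both genes higher. Eprs over Pars2 was 23.3, 22.8 and 22.3 with vehicle and 16.9, 19.2 and 14.7 with rMANF, and Lars over Lars2 completed the 4. Eprs itself, a fused enzyme for glutamate and proline, measured 75.3, 78.6 and 82.1 against 77.2, 96.2 and 85.4 TPM, and its ratio to Ears2 overlapped. Wars over Wars2 went the other way, at 16.2, 19.1 and 18.6 with vehicle and 24.4, 19.5 and 20.9 with rMANF.

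**Figure D4:**
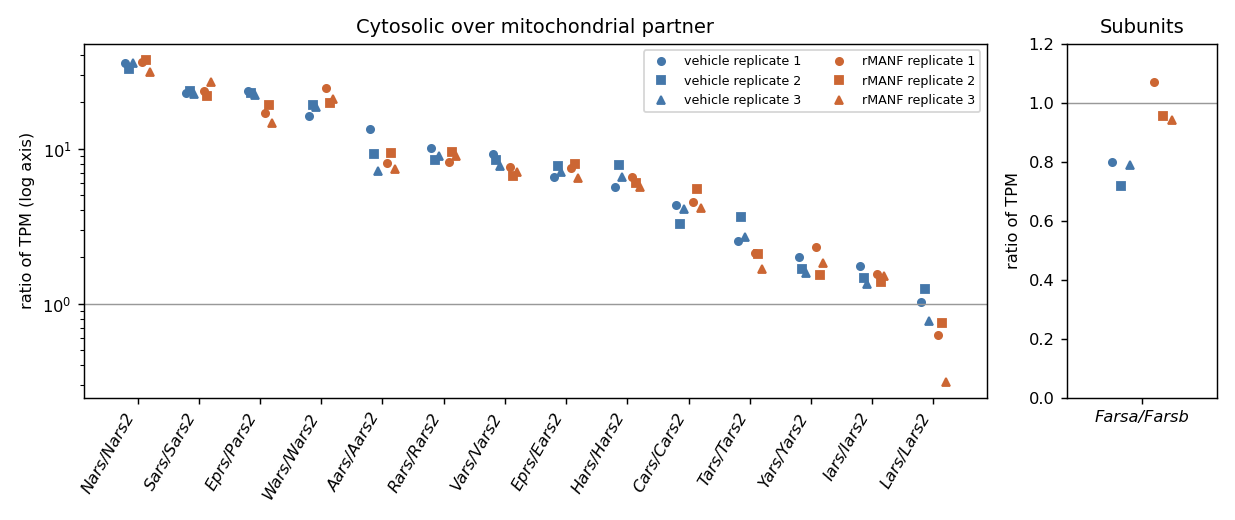
Ratio of cytosolic to mitochondrial TPM for 14 partner pairs (left, log axis) and of Farsa to Farsb (right, linear axis), with 1 point per library. The Lars over Lars2 ratio is the lowest of all pairs, and Farsa over Farsb is 0.718 to 0.800 with vehicle and 0.943 to 1.07 with rMANF.

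Base composition moved with the differences. Across the tested genes, the median difference ran from −0.08 in the decile of genes lowest in transcript GC content to 0.25 in the highest decile. The members ran from 38.8% GC (Mars2) to 59.9% (Vars), with Vars2 at 59.6% and Aars2 at 59.2%, against a median of 50.1% over tested genes. With each library's GC trend removed, Vars stood at 0.28 ± 0.08, Vars2 at 0.50 ± 0.09 and Aars2 at 0.17 ± 0.13, all below their values as deposited. Qars was the same at 0.25 ± 0.07, and Mars2, the member lowest in GC, moved up to 0.33 ± 0.12. No gene was called at an adjusted p under 0.10 in that fit (limma). The groups then did not overlap for 12 members higher and 0 lower, against 17.0% and 8.75% of all tested genes, Vars, Vars2, Qars, Wars, Pars2, Lars2 and Mars2 among the former.

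**Figure D5:**
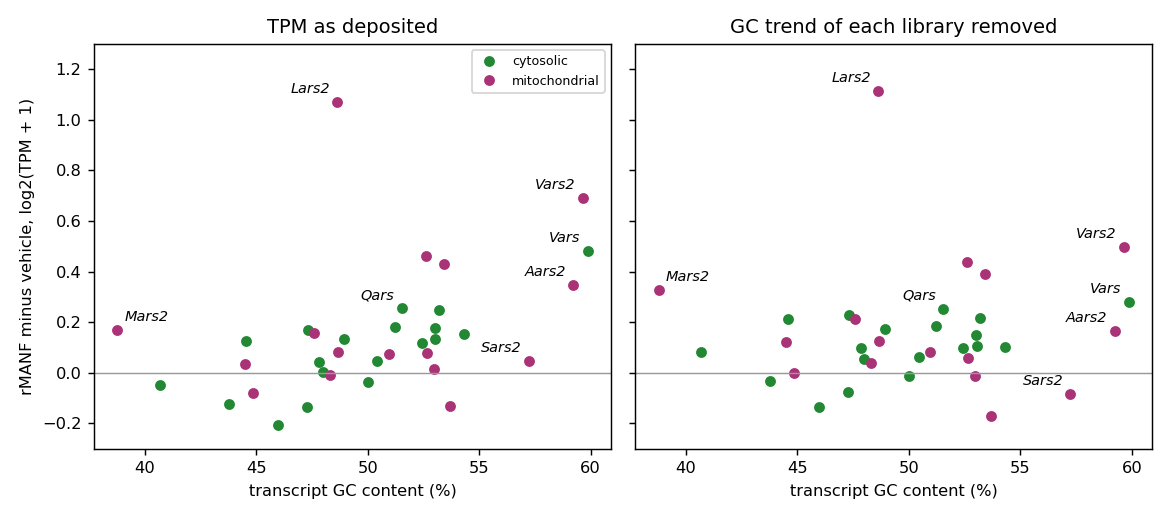
Difference between groups (rMANF minus vehicle, log2(TPM + 1)) against transcript GC content in percent for the 35 synthetase genes, with TPM as deposited (left) and after each library's GC trend was removed (right). Vars, Vars2 and Aars2, near 60% GC, move down from 0.48, 0.69 and 0.35 to 0.28, 0.50 and 0.17, and Lars2 stays near 1.1.

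Many cytosolic synthetase genes are known targets of ATF4, the transcription factor of the amino acid and integrated stress responses, which binds the C/EBP-ATF response element with the core TGATGNAA. RefSeq promoters were found for 26 of the 35 members. The windows run from 250 bases before to 50 after the start and were searched on both strands. The element's core occurred in 5 of 12 cytosolic promoters, 0 of 14 mitochondrial ones, 3.97% of all promoters and 2.78% of those of tested genes. The 5 are shown because they carry this core, in the gene's orientation with 20 bases on either side and every match in capitals, read on either strand. They lie at chr8:111033710-111033878 (plus), chr6:55037951-55037998 (plus), chr13:49682117-49682164 (plus), chr15:11399646-11399693 (minus) and chr4:129189886-129189933 (plus) of GRCm38.p6.
Aars: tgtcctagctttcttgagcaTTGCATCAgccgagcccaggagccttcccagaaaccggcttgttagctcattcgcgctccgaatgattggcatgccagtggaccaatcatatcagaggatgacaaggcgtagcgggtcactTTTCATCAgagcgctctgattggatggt
Gars: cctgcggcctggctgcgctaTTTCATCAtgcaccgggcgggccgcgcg
Iars: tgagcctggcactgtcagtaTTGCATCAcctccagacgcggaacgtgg
Tars: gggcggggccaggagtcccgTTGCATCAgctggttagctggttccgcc
Yars: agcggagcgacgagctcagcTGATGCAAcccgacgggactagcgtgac

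In Aars the core matched at positions −112 and 10 from the start, in Gars at −30, in Tars at −15, in Iars at 8 and in Yars at 4. The 5 genes did not share a direction. Aars and Yars differed by 0.18 each, Iars by 0.13, Gars by 0.00 and Tars by −0.14. The other motifs were likewise searched on both strands, where they can overlap one another. The core of the ETS factor family, CGGAAG, occurred in 13 of the 26 promoters, against 36.3% of promoters of tested genes and 16.9% of all promoters. The box of the factor NF-Y, CCAAT, occurred in 12, against 42.9 and 37.4%. An E-box, CACGTG, occurred in 5, against 11.7 and 7.15%. The palindrome of the factor NRF1 occurred in 0, against 2.34 and 0.971%. The promoter of Qars (chr9:108507755-108508054, plus strand) is shown as that of the cytosolic member of smallest p for which a sequence was found, with its matches to the ETS core and the NF-Y box in capitals. No sequence was found for Vars, Wars, Pars2, Nars, Cars, Rars, Lars, Hars and Hars2.
Qars: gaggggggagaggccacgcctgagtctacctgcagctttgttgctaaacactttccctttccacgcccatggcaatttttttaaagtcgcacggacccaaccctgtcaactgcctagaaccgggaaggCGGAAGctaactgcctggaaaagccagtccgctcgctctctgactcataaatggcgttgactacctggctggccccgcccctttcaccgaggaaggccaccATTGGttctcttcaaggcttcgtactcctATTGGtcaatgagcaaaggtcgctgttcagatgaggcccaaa

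Many ATF4 and amino acid response genes themselves lay higher. Of 19 listed, 17 were tested, 15 lay higher and 10 did so without overlap (58.8%), with a median of 0.26 (18.9% and 0.04 over all tested genes). The median GC content of this list was 55.9%, against 50.1% over tested genes, and its part in these differences was not tested. At an adjusted p under 0.10 limma called 2 of them. Ddit4, which restrains the growth kinase complex mTORC1, measured 38.6, 39.0 and 49.6 TPM under vehicle against 113, 79.5 and 62.9 TPM under rMANF (0.96 ± 0.21; limma, adjusted p = 0.0947). Slc7a5, a transporter of large neutral amino acids, measured 106, 90.1 and 98.8 TPM under vehicle against 141, 128 and 124 TPM under rMANF (0.41 ± 0.09; limma, adjusted p = 0.0986). Atf4 itself overlapped between groups (504, 460 and 424 against 530, 480 and 469 TPM), and so did Asns, the asparagine synthetase gene (188, 232 and 200 against 213, 202 and 202 TPM). Their list's higher share was not compared with that of the synthetases by a test.

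Other genes of transfer RNA charging and translation were mixed. Within the cytosol 8 synthetases join scaffold proteins in the multisynthetase complex. Of the 7 measured under their listed names, Qars and Lars were higher without overlap (28.6%, against 18.9% of all tested genes; median 0.13), Lars not under median-of-ratios scaling. Of the 3 scaffold genes 0 were. Eef1e1, one of these scaffolds, measured 42.2, 44.5 and 39.9 TPM under vehicle against 37.2, 39.8 and 35.4 TPM under rMANF, lower in every rMANF library (−0.17 ± 0.09; limma, adjusted p = 0.326). Aimp2, a further scaffold, differed by 0.08 ± 0.08.

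The elongation factor gene Eef2, whose product moves the ribosome along the messenger, measured 1614, 1612 and 1885 TPM under vehicle against 2371, 2255 and 2565 TPM under rMANF. It was higher in every rMANF library (0.49 ± 0.09; limma, adjusted p = 0.0893), as was Eef2k, which encodes the kinase of that factor (0.25 ± 0.11). Of the 6 cytosolic elongation factor genes 3 were higher without overlap, against 18.9% of all tested genes. Of 7 genes of proofreading, transfer RNA export and sensing of uncharged transfer RNA, 2 (28.6%) were, namely Aarsd1, an editing protein for mischarged alanine transfer RNA (0.54 ± 0.19), and Gcn1l1, an activator of the sensor kinase GCN2 (0.34 ± 0.12). Eif2ak4, the gene of GCN2 itself, differed by 0.00 ± 0.12.

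On the mitochondrial side, the 9 translation factor genes had a median of −0.04. Of them 1 was higher without overlap (11.1%, against 18.9% of all tested genes) and 2 were lower (against 9.02%). Tsfm, an elongation factor, differed by 0.14 ± 0.08 and Mrrf, which recycles ribosomes, by −0.14 ± 0.09. The 12 genes of mitochondrial transfer RNA processing and modification had a median of 0.02, with 6 higher and 6 lower. Of the 12, 3 were higher without overlap (25%, against 18.9% of all tested genes). They included Pus1, a pseudouridine synthase (0.28 ± 0.09; limma, adjusted p = 0.145), and Gtpbp3, which modifies the wobble position (0.36 ± 0.11; limma, adjusted p = 0.146). None of these mitochondrial genes was called at an adjusted p under 0.10.

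The calls of Vars2 and Vars at an adjusted p under 0.10 held in the fits without vehicle replicate 1 or 3 (limma, adjusted p = 0.0702 to 0.0896). They ended without vehicle replicate 2, whose skeletal muscle markers summed highest, and without any 1 of the 3 rMANF replicates. Those 4 fits called 0, 3, 0 and 0 of the 12865 tested genes at 0.10. Without vehicle replicate 1 the total was 971 genes, and without vehicle replicate 3 it was 538, so the loss is not particular to these 2 genes. In the same 4 fits Vars2 stood at 0.69, 0.69, 0.66 and 0.72 and Vars at 0.48, 0.43, 0.49 and 0.52. The sizes thus changed little, while the adjusted p was 0.213 to 0.281 (limma). When the mean log2 level of the skeletal muscle markers entered the fit as a covariate, Vars2 stood at 0.65 ± 0.15 and Vars at 0.49 ± 0.12 (limma, adjusted p = 0.767 each). The summed level of these markers was itself lower in every rMANF library, so this fit cannot fully separate it from the group. The part of macrophage markers in these differences was not tested.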

How the data were processed

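The 6 RNA-seq libraries, 3 per group, were analysed. Per the labels' protocols, libraries of QIAzol-extracted RNA were prepared with Nextera XT, a kit without strand information. The submitters' processing notes name mm10, Salmon 0.14.1, HTSeq 0.11.0, fastp and cutadapt, without saying which step gave the final values. Deposited by the authors were log2 TPM values of 23494 genes. Turned back to TPM, each library's total lay within 19.5 of the nominal one, and −9 (no estimate) was set to 0. TPM keeps no depth, so depth is unknown and no counting interval was computed. The table held 0 columns of other samples.

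All differences (rMANF minus vehicle) are on the log2(TPM + 1) scale, where changes of low genes come out too small. Genes averaging 1 TPM or more (12865) were tested with limma 3.58.1 (R 4.3.3, mean trend, two-sided) and Benjamini-Hochberg adjustment over all of them. With 3 against 3 libraries an exact permutation test cannot go below p = 0.1, so none was added. If the replicates are not separate mice, p-values measure only the spread between samples. The limma procedure was tested on simulated data.

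Members, lists and motifs were chosen with earlier results of these data known, so none is independent evidence. Values per library were given by rule for the 5 members of smallest p in each direction and compartment, their partners, the most and least abundant members, Gars, Kars and Wars. The 2 genes of smallest p were named per related list. Farsa, Mars, Mars2 and other genes were added after their values were seen. GC content (all GENCODE M21 transcripts of a gene pooled) was found for 99.7% of tested genes, and positions are from GENCODE M21 (GRCm38). Alternatives tried covered pseudocounts, filters, scalings, GC trend (loess, span 0.5), variance models, library weights, covariates, a replicate block and leaving out each library.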

Additional observations from a re-analysis of the deposited data

How the results depend on the processing

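None of the 35 synthetase genes passed 0.05 in the fit reported, and this also held when any 1 library was left out. Library weights gave 3 (Vars, Vars2 and Tars2) among 737 of 12865 genes, and the replicate block with the GC trend removed gave 1 among 32 genes (Lars2, adjusted p = 0.0487, limma). At 0.10 the 2 calls became 0 without the filter on low values, after rescaling without mitochondrially encoded and haemoglobin genes, with the GC trend removed, without the variance trend, and with the skeletal muscle or the Gm42418 level as a covariate. Of all tested genes each of those fits also called 0, except 1 of 23494 without the filter. The loss is thus not particular to the members. With library weights the 2 calls became 8, among 1859 genes. They ran from 0 to 3 over the fits that left out 1 library, with 3 among 971 genes without vehicle replicate 1. With the replicate block 1 member was called at 0.10 (Lars2, adjusted p = 0.0590, limma), among 113 genes. With the GC trend also removed Lars2 was again the only member, among 81 genes. The replicate numbers give no pairing in the labels, and deviations of same-numbered libraries correlated at −0.07, 0.03 and 0.05, so the block stays an alternative. The cause of these changes was not tested.

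The cytosolic median ran from 0.07 to 0.17 over all alternatives. The mitochondrial median ran from 0.033 (median of ratios) to 0.17 over all alternatives, and from 0.066 to 0.17 with 1 library left out. Cytosolic genes without overlap and higher were 3 under median-of-ratios scaling (15.6% of all tested genes) and 6 to 9 with 1 library left out (20.6 to 32.1% of all tested genes), and mitochondrial ones 3 with the filter at 5 TPM, which tests fewer genes, and 5 to 8 with 1 library left out. Variance models, weights, covariates and blocks leave these counts as they are and were not rerun for them.

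Of 502 recomputed differences of 24 named genes, 22 changed sign, all in genes whose difference lay between −0.13 and 0.12. Gars turned to −0.048 (median of ratios), −0.011 (quantile) and −0.014 (rescaled), and ran from −0.036 to 0.072 with 1 library left out. Wars2 turned to 0.051 (quantile), 0.040 (GC trend removed, with or without the block) and 0.012 (weights), and ran from −0.059 to 0.042 with 1 library left out. Dars turned to 0.082 and Rars2 to 0.0014 with the GC trend removed, with or without the block. Kars turned to −0.0062 under median of ratios. Hars turned to 0.10 with the muscle covariate, 0.20 with Gm42418, and ran from −0.11 to 0.045 with 1 library left out. Cars2 turned to 0.037 with the muscle covariate and Sars to −0.0082 with Gm42418.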
